A study of Mus musculus with 3 samples.

Results

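The phagocyte NADPH oxidase was described through 6 genes, Cybb, Cyba, Ncf1, Ncf4, Rac1 and Rac2, taken by their names in the GENCODE M21 annotation out of 55536 annotated genes, 22028 of them protein-coding. RNA of the chromatin fraction was sequenced after ribosomal RNA depletion from macrophages of C57BL/6J mice, primary cells derived from bone marrow (BMDM). Every library had the same treatment: Lipid A, the part of bacterial lipopolysaccharide sensed by the receptor TLR4, at 100 ng/ml for 12 h, a washout of 12 h, and Lipid A again at 100 ng/ml for 25 min. The 3 libraries are labelled biological replicates 1, 2 and 3 and carry the same donor identifier, and nothing in them names separate animals, so errors describe library-to-library spread, which may be technical. No other condition was analysed here, and the values are levels within this state, not responses to Lipid A. The labels give neither the age nor the sex of the mice.

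The oxidase transfers electrons from NADPH in the cytosol across the membrane to oxygen and so makes superoxide, which phagocytes use against engulfed microbes. Its catalytic core is a heterodimer in the membrane, made of gp91phox (Cybb) and p22phox (Cyba). In resting cells the organizer p47phox (Ncf1) and the adaptor p40phox (Ncf4) are in the cytosol, and after stimulation they move to the core together with a Rac GTPase (Rac1 or Rac2). Loss of core or cytosolic subunits causes chronic granulomatous disease in humans. RNA in the chromatin fraction is largely nascent or retained at its gene, so its level need not follow that of the protein.

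Annotated genes took between 13502401 and 17848798 expected counts per library, and the ribosomal RNA locus held 11.1% of them in replicate 1, 31.8% in replicate 2 and 24.8% in replicate 3. The starting RNA was 1 µg, 250 ng and 500 ng in the same order. A macrophage identity was checked with 10 marker genes, and 10 of 10 reached at least 1 TPM in each of the 3 libraries (TPM is transcript abundance per length, scaled to the same total in each library). Their summed level ran from 1088 to 1174 TPM. Single markers could differ more, as Cd14 with 57.5, 65.85 and 191 TPM in replicates 1, 2 and 3. Over all protein-coding genes 44% reached 1 TPM in each library. Of 12 neutrophil markers 1 reached that level, Csf3r, which macrophages can also express, and the granule and neutrophil genes S100a8, Elane and Ly6g had no count. Without Csf3r, the next of these, Ngp, had a mean of 0.41 TPM. None of 5 B cell, 5 dendritic cell and 5 fibroblast markers reached it, and of 6 T cell markers Cd4 did. Below that level the fibroblast markers Col1a1, Col3a1 and Col1a2 differed by library. In replicates 1, 2 and 3 they had 0, 32 and 42, 0, 16 and 18, and 1, 23 and 17 counts. A second quantification of the same libraries placed 3 neutrophil, 3 T cell, 2 dendritic cell and 1 fibroblast markers at or above 1 TPM in each library. Among them were Cd3d at a mean of 12.1 TPM and Cxcr2 at 3.37 TPM, beside 0.03 and 0.013 TPM in the first.

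Isoforms of the oxidase genes differ in stretches of various length, and parts of some are shown here in the GRCm38 build on the strand of the gene. The first is the alternative exon of Rac1, in capitals, with 15 bases of the neighbouring exons on each side in small letters. It lies at chr5:143509597-143509653, on the minus strand.
Rac1-202: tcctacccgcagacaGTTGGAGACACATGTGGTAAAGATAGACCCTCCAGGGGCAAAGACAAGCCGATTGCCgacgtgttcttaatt
Its 57 bases extend the coding sequence from 576 to 633 bases. The isoform that contains it, often called Rac1b, is known as a fast-cycling form of the GTPase.

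The next sequences mark where isoforms annotated as retained introns leave the coding message, with intron bases in capitals and exon bases in small letters. They are shown for Cybb, Ncf1 and Ncf4 because the other 3 genes have no isoform annotated in this class. That difference lies in the annotation and is not a measured one. The Cybb boundaries are at chrX:9465614-9465673 and chrX:9449611-9449670, both on the minus strand. The Ncf1 boundary is at chr5:134227496-134227555, on the minus strand, and the Ncf4 boundary at chr15:78260725-78260784, on the plus strand.
Cybb-202: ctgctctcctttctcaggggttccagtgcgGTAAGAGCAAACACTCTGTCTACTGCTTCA
Cybb-203: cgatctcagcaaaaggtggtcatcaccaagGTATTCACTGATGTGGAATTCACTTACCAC
Ncf1-203: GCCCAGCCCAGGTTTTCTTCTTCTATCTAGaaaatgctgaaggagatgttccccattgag
Ncf4-204: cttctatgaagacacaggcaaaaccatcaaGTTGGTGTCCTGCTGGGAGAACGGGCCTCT
In the Cybb and Ncf4 sequences the exon runs into the intron at its 5′ end. In the Ncf1 sequence the exon is entered from the 3′ end of the intron before it.

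All 6 genes were detected, which here means 1 TPM or more in each of the 3 libraries, as were 44% of protein-coding genes (9689 of 22028). In the other quantification 6 of 6 passed again, beside 53.9% of protein-coding genes. The order by mean TPM was Ncf1, Cybb, Ncf4, Rac2, Cyba and Rac1. Of these, 5 genes stood well above the median of 10.98 TPM over detected protein-coding genes, and Rac1 stood below it. This order and median are those of the first quantification. In the second the order was Ncf1, Cybb, Rac2, Ncf4, Cyba and Rac1, and Rac1 had a mean of 46.9 TPM.

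**Figure D1:**
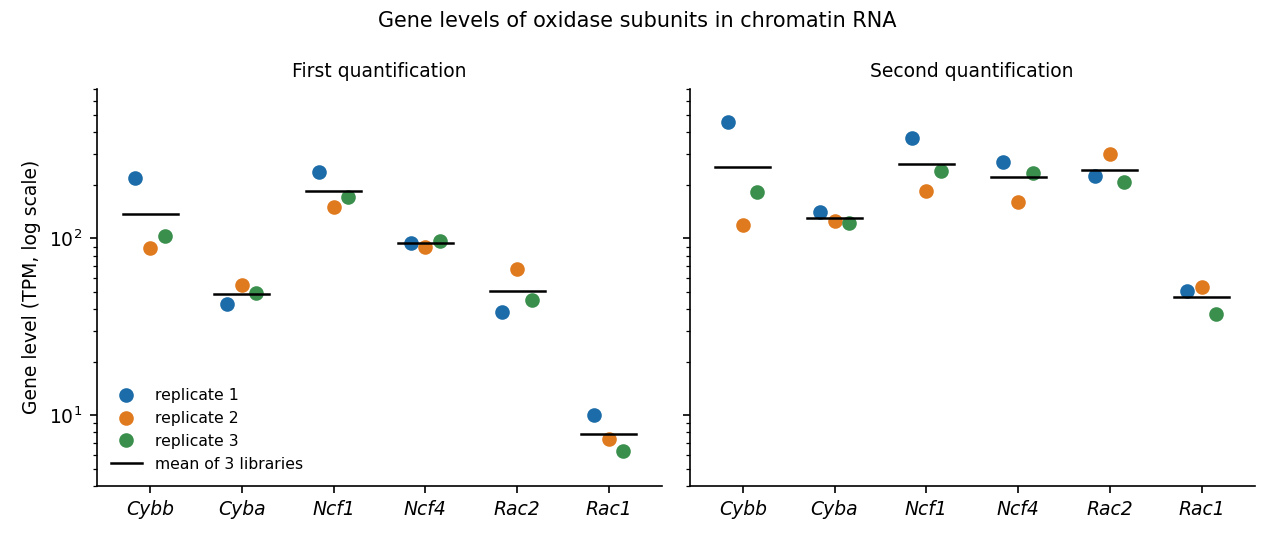
Gene level in TPM on a log axis for the 6 oxidase genes in the first (left) and second (right) quantification, with 1 point per library and a bar at the mean of the 3 libraries. Rac1 is lowest in both panels, and replicate 1 is the highest library for Cybb and Ncf1 in both.

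Cybb, the catalytic subunit with the haem groups and the NADPH site, lies on chromosome X from 9435252 to 9487771 on the minus strand. Its level was 219.9, 88.5 and 104 TPM in replicates 1, 2 and 3, with a mean of 137 ± 71.9 (SD, n = 3), from 4631, 2632 and 3369 expected counts. Replicate 1 stood 2.48-fold above replicate 2 in TPM. The counting error was 1.47% to 1.95% of the gene counts, which is not the error of the TPM. Its coefficient of variation of 52.3% was above that of 98.2% of detected protein-coding genes, whose median was 16.5%. This spread rests on replicate 1: without it the mean was 96.1 TPM and the coefficient of variation 11.2%, above that of 50.5% of the same genes, whose median was then 11.1%. In bulk RNA, fewer cells expressing a gene and less RNA per cell cannot be told apart.

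Cyba, the smaller membrane partner that stabilises the catalytic subunit and docks p47phox, lies on chromosome 8 from 122424776 to 122432930 on the minus strand. Its level was 42.9, 54.3 and 49.3 TPM in replicates 1, 2 and 3, a mean of 48.8 ± 5.70, from 302, 413 and 418 counts. It varied by 11.7%, less than the median gene, and replicate 1 was its lowest library. By the second quantification, however, replicate 1 was its highest, at 141 TPM beside 126 and 122. Cyba overlaps Gm20388 on the other strand, and because the strand setting of the counting is not given in the sources used here, reads of the overlap are uncertain. Gm20388 itself had 0.2, 2.62 and 2.5 TPM.

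The membrane pair was thus unequal at the gene level. Cybb exceeded Cyba 5.13-fold, 1.63-fold and 2.11-fold in replicates 1, 2 and 3. On the log2(TPM + 1) scale the difference was 1.36 ± 0.86, with Cybb higher in 3 of 3 libraries. An exact two-sided sign-flip test gave p = 0.25, the smallest that 3 libraries allow, and 0.25 after Benjamini-Hochberg adjustment over 3 pairs. The difference was 0.72 ± 0.90 in the second quantification, with Cybb higher in 2 of 3 libraries (exact sign-flip p = 0.5). The order did not hold for complete coding isoforms, as given below.

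Ncf1, the organizer that is phosphorylated on activation and carries the cytosolic subunits to the core, lies on chromosome 5 from 134220053 to 134229625 on the minus strand. Its level was 236.6, 150.7 and 171 TPM, with a mean of 186 ± 44.9, from 4953, 3538 and 4682 counts. It ranked 192nd among protein-coding genes, the highest place of the 6. As with Cybb, replicate 1 was highest and replicate 2 lowest. Ncf1 overlaps Gtf2ird2 on the other strand, which had 56.8, 34.5 and 43.3 TPM.

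Ncf4, which binds phosphatidylinositol 3-phosphate on phagosomes, lies on chromosome 15 from 78244801 to 78262580 on the plus strand. Its level was 94.4, 89.7 and 97.3 TPM, a mean of 93.8 ± 3.86, from 792, 816 and 957 counts. With a coefficient of variation of 4.12% it was among the steadiest genes, above 4.38% of detected protein-coding genes only. Its libraries spread more widely in the second quantification, at 272, 162 and 236 TPM.

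Ncf1 exceeded Ncf4 2.51-fold, 1.68-fold and 1.76-fold in replicates 1, 2 and 3. The log2 difference was 0.95 ± 0.31, higher in 3 of 3 libraries (exact sign-flip p = 0.25, adjusted 0.25). In the second quantification it was smaller, 0.22 ± 0.20, again with Ncf1 higher in each library.

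Rac2 is the Rac form largely restricted to blood cells, and Rac1 is found in nearly all cell types. Rac2 lies on chromosome 15 from 78559167 to 78572783 on the minus strand, 296.6 kb beyond the end of Ncf4. Its level was 38.6, 67.1 and 45.0 TPM, a mean of 50.2 ± 14.96, from 765, 1091 and 922 counts. By this TPM replicate 2 was highest and replicate 1 lowest, the reverse of Cybb and Ncf1. The second quantification gave 225, 302 and 209 TPM, with replicate 2 again highest but replicate 3 lowest.

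Rac1 lies on chromosome 5 from 143503634 to 143528036 on the minus strand. Its level was 10.01, 7.35 and 6.29 TPM, a mean of 7.88 ± 1.92, from 274, 254 and 318 counts. It ranked 5856th among protein-coding genes, and 1968th in the second quantification. On the other strand 2 genes overlap it: Daglb at 10.9, 16.7 and 12.4 TPM and Gm42502, an unverified gene model, at 16.7, 21.7 and 19.6 TPM. Both stood above Rac1 in every library, and reads in the overlaps were not counted here.

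Rac2 exceeded Rac1 3.85-fold, 9.13-fold and 7.15-fold in replicates 1, 2 and 3. The log2 difference was 2.51 ± 0.60, higher in 3 of 3 libraries (exact sign-flip p = 0.25, adjusted 0.25). Among neighbours in the order of levels, 2 pairs did not differ beyond their spread. Cybb exceeded Ncf4 in 2 of 3 libraries (log2 difference 0.43 ± 0.68), and Rac2 exceeded Cyba in 1 of 3 (0.01 ± 0.25).

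The libraries differed in which genes they favoured. After TMM scaling of counts, Cybb deviated from its mean log2 CPM (counts scaled to library total) by 0.57 in replicate 1, -0.43 in replicate 2 and -0.14 in replicate 3. Ncf1 deviated by 0.34, -0.34 and 0.00. The range of Cybb, 1.00, was larger than that of 88.9% of 14193 genes tested, and that of Ncf1, 0.67, larger than that of 71.4%. Cyba, Ncf4, Rac1 and Rac2 had ranges of 0.16 to 0.33, below the median of 0.46 over the same genes. By TPM, 3 of 6 members were highest in replicate 1, beside 41.6% of detected protein-coding genes. Starting RNA and the ribosomal share moved with the replicates as given above, and their part in the Cybb difference was not tested.

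**Figure D2:**
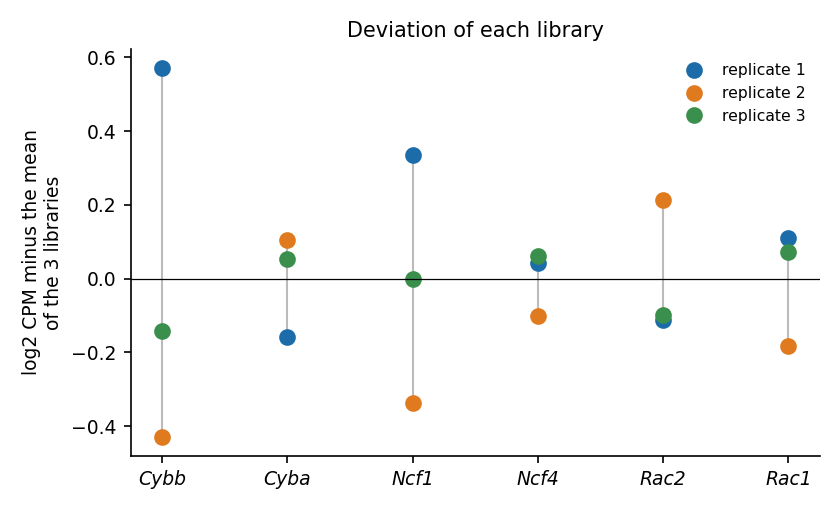
Deviation of each library from the mean of the 3, in log2 CPM after TMM scaling, for the 6 oxidase genes, with grey lines joining the lowest and highest library. Cybb spans 1.00 and Ncf1 0.67, both with replicate 1 highest, while the other 4 span at most 0.33.

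The edgeR biological coefficient of variation (BCV, the spread beyond counting error) was 0.240 for Cybb, above that of 82.4% of genes tested, and 0.200 for Ncf1. The other 4 had values of 0.172 to 0.181, beside a median of 0.203 over all genes. These estimates are drawn strongly toward the trend over genes. Counts were simulated for the spread of the 3 libraries, and 13741 genes passed the filter. Of these, 191 had been given a higher BCV, all chosen among genes with higher counts. Their median BCV was 3.02-fold above that of unchanged genes with higher counts. It came out 1.42-fold above, and 3.13-fold without shrinkage. Without shrinkage, an alternative added after seeing the data, Cybb had a BCV of 0.358 and Ncf4 0.0509. The high place of the shrunken Cybb value did not hold when any 1 library was left out. The value was 0.151 without replicate 1, 0.203 without replicate 2 and 0.229 without replicate 3, above 23.8%, 46.0% and 11.4% of genes tested. Without replicate 3 the shrunken values of all members lay close together, at 0.229 to 0.234. The coefficient of variation of Cybb TPM stayed high, at 50.7% without replicate 2 and 60.2% without replicate 3. These were above 97.3% and 97.9% of detected protein-coding genes.

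Gene levels add up isoforms of very different length. Of the TPM of Cybb, 74.4%, 66.9% and 66.1% in replicates 1, 2 and 3 was in isoforms annotated as retained introns. These are Cybb-202 (928 bases, 109, 35.8 and 40.4 TPM) and Cybb-203 (566 bases, 54.9, 23.4 and 28.2 TPM), whose boundaries are printed above. The complete coding isoform Cybb-201 (4752 bases) had 54.8, 29.3 and 35.1 TPM. Counts gave the opposite picture, because a short isoform turns few reads into a high TPM: the retained-intron isoforms held 28.3%, 19.2% and 18.9% of Cybb counts. Cybb-205, an incomplete coding model of 390 bases, had at most 1.45 TPM in the first quantification and 48.8, 18.9 and 32.5 TPM in the second.

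Replicate 1 exceeded replicate 2 in each of these Cybb isoforms. The excess was 1.87-fold for the complete coding isoform and 2.48-fold for the gene.

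In Ncf1, retained-intron isoforms took 48.2%, 51.8% and 45.8% of TPM, led by Ncf1-203 at 96.0, 60.3 and 64.1 TPM. Ncf1-204, also of that class, had 18.2, 17.1 and 14.1 TPM. The coding isoforms were Ncf1-202 at 69.5, 43.9 and 55.9 TPM and Ncf1-205 at 51.7, 27.5 and 36.2 TPM. In Ncf4 the retained-intron share was 66.8%, 61.3% and 61.7%, spread over Ncf4-204 (23.9, 25.4 and 23.9 TPM), Ncf4-206 (23.2, 19.6 and 23.1 TPM) and Ncf4-202 (9.51, 3.85 and 8.4 TPM). Its complete coding isoform Ncf4-201 had 29.0, 24.8 and 26.3 TPM, and the incomplete Ncf4-203 had 2.35, 9.93 and 11.0 TPM.

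Among 4726 genes with both a coding and a retained-intron isoform and at least 5 TPM in every library, the median retained-intron share of TPM was 46.0%. The mean share of Cybb, 69.2%, was above that of 85.9% of these genes, that of Ncf4, 63.2%, above 78.1%, and that of Ncf1, 48.6%, above 54.5%. By counts the same genes stood above 40.3% (Cybb), 54.2% (Ncf4) and 30.05% (Ncf1) of them. By TPM of the second quantification they stood above 74.0% (Cybb), 91.7% (Ncf4) and 79.8% (Ncf1). Their place and their order thus depended on whether TPM or counts were used and on the quantification. Unspliced precursor RNA and a stable isoform with a retained intron cannot be told apart in these tables.

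**Figure D3:**
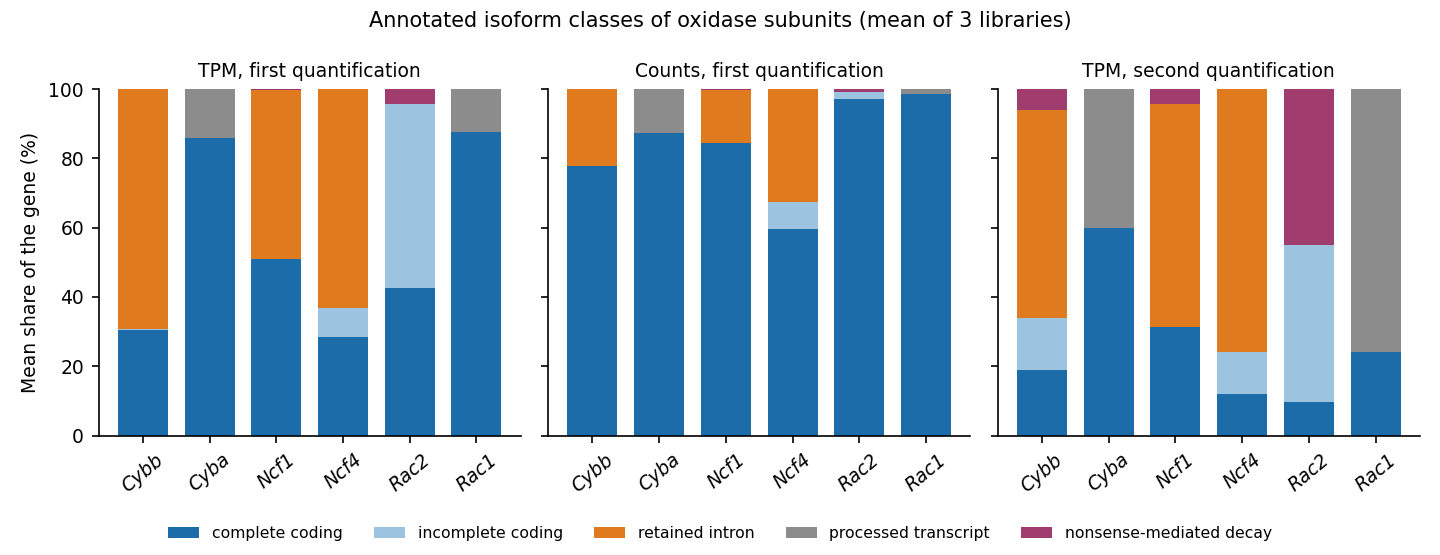
Mean share of each gene in annotated isoform classes over the 3 libraries, in percent, by TPM of the first quantification (left), its counts (middle) and TPM of the second quantification (right). Retained-intron isoforms (orange) hold 69.2% of Cybb TPM in the left panel, and complete coding isoforms (dark blue) are a larger share of counts than of TPM for each gene.

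No isoform of Cyba, Rac1 or Rac2 is annotated as a retained intron. Cyba was mostly its full coding isoform, Cyba-201, at 36.9, 42.2 and 43.1 TPM. Cyba-203, a processed transcript without a coding sequence, had 5.98, 10.7 and 4.20 TPM. In the second quantification Cyba-203 (58.7, 52.5 and 45.6 TPM) was close to Cyba-201 (52.3, 41.7 and 52.6 TPM), and the shorter coding isoform Cyba-202 had 29.7, 32.0 and 24.3 TPM, beside at most 1.98 TPM in the first.

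Rac2 rested on 1 short isoform to a large degree. Rac2-203, an incomplete coding model of 254 bases, had 17.1, 39.4 and 25.3 TPM from 14.6, 26.0 and 21.1 counts. The full coding isoform Rac2-201, of 3038 bases, had 19.7, 23.4 and 18.6 TPM from 745, 1051 and 897 counts. By TPM the gene level of Rac2 was thus higher in replicate 2 in large part through Rac2-203. The deposited TPM intervals of Rac2-203 overlapped, at 5.95 to 28.3 in replicate 1 and 20.8 to 55.5 in replicate 2. By counts Rac2-201 held most of the gene and was itself highest in replicate 2. In the second quantification Rac2-202, annotated for nonsense-mediated decay, had 95.7, 135 and 99.2 TPM, beside 1.70, 4.28 and 1.07 TPM in the first.

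For Rac1 the isoform with the alternative exon, Rac1-202, had 5.28, 5.36 and 3.36 TPM, and Rac1-201 without it had 2.17, 1.16 and 2.92 TPM. By TPM Rac1-202 was higher in 3 of 3 libraries, with the closest values in replicate 3. By counts it had 149, 179 and 121, beside 115, 73.1 and 198 for Rac1-201. The order by counts was thus reversed in replicate 3. In the second quantification Rac1-202 had 15.8, 9.76 and 8.16 TPM and Rac1-201 was listed at 0, 0.148 and 0.334 TPM. Rac1-201 also carries 1891 bases that Rac1-202 lacks, mostly at the 3′ end of the message, so the split does not rest on the printed exon alone, and reads across that exon were not counted here. In the second quantification most of Rac1 was in the processed transcripts Rac1-203 (21.2, 27.0 and 14.95 TPM) and Rac1-204 (13.4, 16.02 and 13.9 TPM) by TPM, which had at most 1.89 TPM in the first. By counts of the second quantification the coding isoforms held 73.6% of Rac1 and the processed transcripts 26.4%.

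Levels over complete coding isoforms alone, an alternative added after seeing the data, gave another order: Ncf1 (95.1 ± 24.7 TPM), Cyba (41.8 ± 4.35), Cybb (39.7 ± 13.4), Ncf4 (26.7 ± 2.14), Rac2 (20.6 ± 2.49) and Rac1 (6.75 ± 0.62). The second quantification gave the same order, with 83.5, 77.5, 43.5, 26.4, 23.5 and 11.4 TPM. Cybb then no longer exceeded Cyba: the log2 difference was -0.12 ± 0.59 in the first quantification, with Cybb higher in 1 of 3 libraries, and -0.92 ± 0.59 in the second, with Cybb higher in 0 of 3. The log2 difference of Rac2 from Rac1 was 1.47 ± 0.20 and 1.02 ± 0.40, higher in 3 of 3 libraries each time. That of Ncf1 from Ncf4 was 1.77 ± 0.26 and 1.57 ± 0.36.

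**Figure D4:**
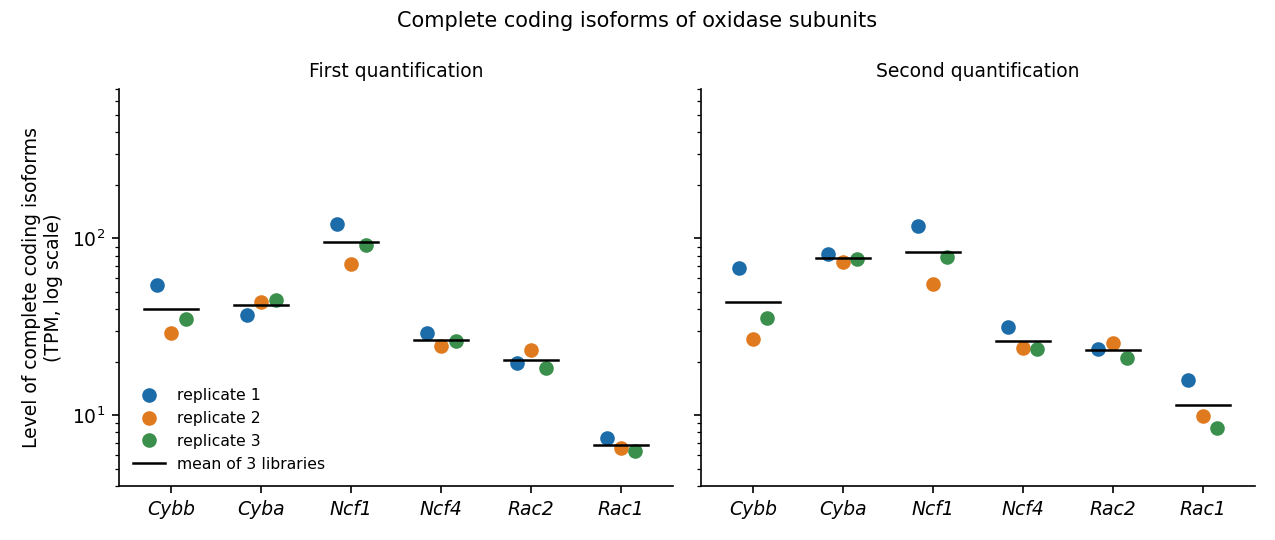
Level of complete coding isoforms in TPM on a log axis for the 6 oxidase genes in the first (left) and second (right) quantification, with 1 point per library and a bar at the mean. Cyba and Cybb lie together in the left panel (41.8 and 39.7 TPM), and Rac1 is lowest in both.

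At the gene level the second quantification gave higher means for all 6, by 1.43-fold for Ncf1, 1.84-fold for Cybb, 2.38-fold for Ncf4, 2.66-fold for Cyba, 4.89-fold for Rac2 and 5.95-fold for Rac1. The increase passed 1.5-fold for 5 of 6 members, beside 37.4% of detected protein-coding genes. For complete coding isoforms the second mean was 77.5 beside 41.8 TPM for Cyba and 11.4 beside 6.75 TPM for Rac1, while that of Ncf1 was lower, 83.5 beside 95.1 TPM.

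For 3 members a promoter was found in the RefSeq table (GRCm38.p6), 250 bases before to 30 bases after the start, and these are printed to show the start regions of both membrane subunits and the organizer. Capitals mark matches, on either strand, to GAGGAA (the core of a site for PU.1, the myeloid ETS factor), CCAAT (the box of that name), the GC box GGGCGG and the motif GAAANNGAA (a paired site of interferon regulatory factors). The motifs were chosen after the sequences had been seen, and the last was first tried with 1 more A at its end. The windows are chrX:9469295-9469574, chr8:122432911-122433190 and chr5:134229596-134229875, each on the minus strand.
Cybb: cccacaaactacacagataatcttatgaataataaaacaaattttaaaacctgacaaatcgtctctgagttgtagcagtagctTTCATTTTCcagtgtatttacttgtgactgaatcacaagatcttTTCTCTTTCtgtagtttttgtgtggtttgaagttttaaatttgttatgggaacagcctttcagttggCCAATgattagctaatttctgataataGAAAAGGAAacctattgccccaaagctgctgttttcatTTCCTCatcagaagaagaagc
Cyba: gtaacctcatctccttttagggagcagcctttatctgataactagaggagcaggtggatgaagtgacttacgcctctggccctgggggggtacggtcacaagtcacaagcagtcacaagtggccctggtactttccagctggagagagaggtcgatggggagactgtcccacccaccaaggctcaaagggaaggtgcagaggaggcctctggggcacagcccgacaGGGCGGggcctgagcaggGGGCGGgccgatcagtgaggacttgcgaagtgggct
Ncf1: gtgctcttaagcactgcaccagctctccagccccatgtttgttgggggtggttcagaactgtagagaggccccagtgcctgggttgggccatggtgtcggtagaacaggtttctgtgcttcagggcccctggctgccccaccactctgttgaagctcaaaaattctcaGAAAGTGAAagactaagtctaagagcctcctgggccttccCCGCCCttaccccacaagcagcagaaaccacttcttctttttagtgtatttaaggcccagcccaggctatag
The paired motif occurs in Cybb and Ncf1, and in 8.06% of 32851 windows of this length, or 3.28% with 1 more A. GAGGAA was found in Cybb and in 26.0% of windows, CCAAT in Cybb and in 36.1%, and GGGCGG in Cyba and Ncf1 and in 34.7%. A match is a run of letters and does not show binding. The Cybb window had 34.3% G and C, that of Ncf1 53.9% and that of Cyba 60%.

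Of 11 listed genes for regulators known to act on oxidase genes 8 were detected, beside 44% of all protein-coding genes. Irf1, an interferon-induced activator, stood at 411 ± 186 TPM (613, 247 and 374), Irf2 at 143 ± 36.0 (179.9, 143 and 108), Irf8 at 80.9 ± 23.6 (75.1, 107 and 60.8) and Spi1, which encodes PU.1, at 50.3 ± 5.80. Irf1 and Irf2 were highest in replicate 1 and Irf8 in replicate 2, and the lowest library was replicate 2 for Irf1 and replicate 3 for Irf2 and Irf8.

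Of 25 genes for assembly and activation 23 were detected, beside 44% of all protein-coding genes. The kinase gene Prkcd, whose product phosphorylates p47phox, stood at 325 ± 70.7 TPM, the Rac exchange factor genes Dock2 at 309 ± 26.9 and Vav1 at 143 ± 12.6, and Prex1, another exchange factor, at 66.5 ± 11.3. Cybc1, a chaperone of the membrane core, had 14.99 ± 2.30 TPM, and the voltage-gated proton channel gene Hvcn1, which compensates the charge moved by the oxidase, 5.80 ± 0.04.

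NADPH comes largely from the pentose phosphate pathway, and 6 of 7 genes for its supply were detected, beside 44% of all protein-coding genes. Pgd led with 63.7 ± 11.3 TPM, followed by G6pdx, its rate-limiting enzyme, with 15.9 ± 1.23, Tkt with 14.0 ± 2.36 and Taldo1 with 7.94 ± 1.02. Of 10 genes that remove superoxide and peroxide 9 were detected, beside the same 44%. The highest was the mitochondrial dismutase gene Sod2 at 411 ± 178 TPM (569, 219 and 445), then Prdx1 at 101 ± 29.7, Prdx5 at 32.7 ± 9.05 and Gpx4 at 29.8 ± 2.06.

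Of 10 other genes of the NADPH oxidase family 2 were detected, beside 44% of all protein-coding genes. They were Noxo1 at 1.59 ± 0.36 TPM and Rac3 at 1.55 ± 0.10. In the second quantification 3 of the 10 were detected, but not Noxo1, whose mean there was 0.97 TPM. Nox1, a catalytic homologue of Cybb, had 0.3, 0.6 and 0.06 TPM in the first quantification and a mean of 2.02 TPM in the second. Nox3, Nox4 and Duox2, further catalytic homologues, had a count of 0 in every library, but the second quantification gave Nox4 a mean of 10.9 TPM. Duox1, a further homologue, had 1, 1 and 2 counts.

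**Figure D5:**
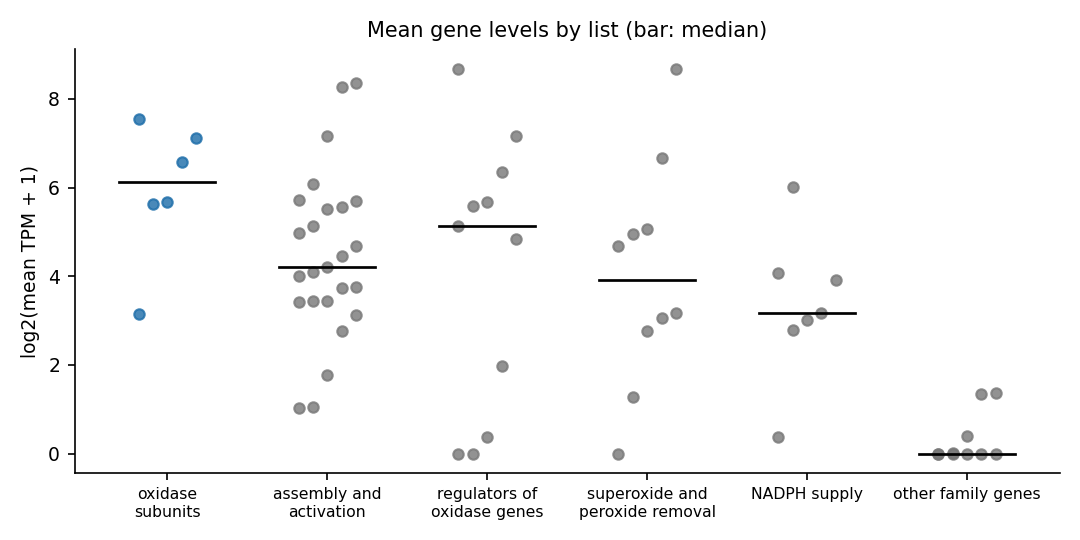
Mean gene level as log2(mean TPM + 1) over the 3 libraries for the oxidase subunits and 5 lists of related genes, with 1 point per gene and a bar at the median of each list. The subunits lie high except Rac1, and most other family genes lie at 0.

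The median log2(TPM + 1) of the 6 members was 6.15, beside 3.56 over detected protein-coding genes. The genes nearest to each member over the 3 libraries, by Euclidean distance in log2(TPM + 1), were Slfn5 (0.21) and Sdcbp (0.23) for Cybb and Clk1 (0.14) and Paxbp1 (0.16) for Ncf1. For Cyba they were Slc9a8 (0.03) and Eno2 (0.08), and for Ncf4 Ecpas (0.09) and Plxna1 (0.14). For Rac2 they were Ssbp4 (0.10) and Vamp2 (0.16), and for Rac1 4930518I15Rik (0.02) and Chm (0.06). No member was among the nearest genes of another.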

How the data were processed

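For each library the authors deposited expected counts and TPM per gene and per transcript (first quantification, with RSEM-style columns per the file headers). A further transcript table holds estimated counts and TPM deposited by the authors (second quantification, kallisto-style columns). The deposited notes give mm10 and GENCODE M21; how strand was handled and which aligner was used are not stated in these sources. Rows outside the annotation held 0.239% to 1.75% of expected counts and were left out. Depth was 13502401 to 17848798 counts; a count of 0 allows up to 3, which covers counting error only.

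Detection required 1 TPM or more in all 3 libraries. Log2 values used a pseudocount of 1. Expected counts were rounded for edgeR 4.0.16 (R 4.3.3; filterByExpr, TMM, intercept only), with DESeq2 1.42.0 size factors as an alternative. Python 3.11.15, numpy 2.4.6, pandas 2.3.3 and matplotlib 3.10.9 were used otherwise. The dispersion estimates were tested on simulated data. A first simulation, in which all but the changed genes shared 1 dispersion, did not recover the changed genes from the shrunken estimate. It was replaced by one with the scatter of dispersions of the real data, with the recovery given in the report.

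The members and lists were chosen with earlier results of these data known. Text names all members, at most the 4 highest genes of each list and those with a stated role, the 2 nearest genes of each member and isoforms with at least 10% of a gene's TPM. Nox1, Nox3, Nox4, Duox1 and Duox2 were named as catalytic homologues. 1 further gene of the family is not reported here.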

Additional observations from a re-analysis of the deposited data

How the results depend on the processing

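No paired analysis was possible because all 3 libraries belong to 1 group. The 6 members were detected under each alternative run. Mean TPM by second quantification, TPM rescaled over protein-coding genes and complete coding isoforms only (added after seeing the data) was 252, 494 and 39.7 for Cybb, 265, 680 and 95.1 for Ncf1, 223, 347 and 26.7 for Ncf4, 130, 181 and 41.8 for Cyba and 245, 187 and 20.6 for Rac2; for Rac1 the first pair was 46.9 and 28.8. The posterior mean of Ncf4 was 88.1. The log2 ratio of Cybb to Cyba reversed for complete coding isoforms, to -0.12 in the first and -0.92 in the second quantification; the cause was not tested. The share of TPM in protein-coding isoforms moved in the second quantification from 85.9% to 59.8% for Cyba, 51.0% to 31.3% for Ncf1, 36.8% to 24.1% for Ncf4, 87.7% to 24.3% for Rac1 and 95.6% to 55.1% for Rac2, and to 74.2% for Rac1 by posterior mean. The median BCV of the members was 0.180, and 0.108 without shrinkage (added). Leaving out 1 library gave mean TPM of 96.1 to 162 for Cybb and log2 ratios of 0.88 to 1.70 for Cybb to Cyba, 0.77 to 1.06 for Ncf1 to Ncf4 and 2.25 to 2.84 for Rac2 to Rac1. Counts of detected genes in the 5 pathway lists stayed within 1.5 times, though the second quantification did not detect the same oxidase family genes. Counts of the marker lists were compared between quantifications alone, in the report. With 3 libraries the sign-flip test could not go below 0.25, and Rac1 and Cyba rest on 254 to 418 counts per library.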
